A study of Mus musculus with 12 samples.

Results

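The HoxC cluster was examined in the forelimb bud of the mouse embryo as the stretch of chromosome 15 that holds the 9 genes Hoxc13, Hoxc12, Hoxc11, Hoxc10, Hoxc9, Hoxc8, Hoxc6, Hoxc5 and Hoxc4, in this order along the plus strand. Each row of a deposited peak list is 1 summit, the base at which an immunoprecipitated protein or mark is most enriched within a peak, and a row was taken when its summit lay within 100 kb of the body of 1 of these genes. This gave a window of 315.75 kb, chr15:102821103-103136852 of build mm10 (GRCm38), around a cluster of 115.75 kb. The window held 181 of the 268431 rows in the 12 lists.

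The lists come from chromatin immunoprecipitation sequencing (ChIP-seq) of pooled forelimb buds of wild-type Swiss Albino embryos. The pregnant mice were injected at E10.5 with C59, a porcupine inhibitor that blocks the secretion of WNT ligands, or with its solvent DMSO, and the buds were dissected 6 h later. The 4 groups are H3K27ac after DMSO, H3K27ac after C59, β-catenin after DMSO and β-catenin after C59, each with 2 replicates and 1 consensus list made from both. The study names the 2 ChIP-seq replicates as biological, each from its own pool of forelimb buds. It describes its biological replicates in general as embryos of several litters, without saying how litters were divided between these 2. Tests therefore measure the spread between these pools, which may be technical in part. The 4 input samples had no list and were not used here. Whole buds were used, so that fewer cells of a type and less signal per cell cannot be told apart.

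Hox genes encode homeodomain transcription factors that give cells their position along the body and limb axes, and 39 of them lie in 4 clusters in which the gene order follows the order of expression. In the HoxC cluster Hoxc4 is at the anterior (3′) end and Hoxc13 at the posterior (5′) end, and Hoxc10 and Hoxc11 are known as hindlimb genes. H3K27ac, the acetylation of lysine 27 of histone H3, marks active promoters and enhancers. β-catenin is the transcriptional co-activator of canonical WNT signaling. It does not bind DNA itself but is held there by TCF/LEF factors, whose core motif is ATCAAAG or TTCAAAG.

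The depth of each library was read from the coverage that the peak caller expected in the emptiest parts of the genome. It was 5.03 to 5.93 Gb of fragments for H3K27ac and 2.93 to 3.42 Gb for β-catenin, and the lowest was a β-catenin DMSO library. The tissue label was checked with marker genes. All 6 limb mesenchyme genes (Prrx1, Prrx2, Twist1, Msx1, Lhx2 and Lhx9) had acetylation at a start, with a summit under 1 kb away, in each of the 4 libraries, with folds that summed to 32.8 and 35.4 after DMSO and to 39.4 and 37.2 after C59. The forelimb gene Tbx5 was marked in each, Pitx1 of the hindlimb was listed in none, and Tbx4, also a hindlimb gene, was marked in each. Of the 5 muscle precursor genes 2 or 3 were listed in each library, and Myf5 and Myod1 in none. The 4 nerve and neural crest genes were listed in no library, and the 3 blood genes were listed at 0 genes after DMSO and at 1 gene (Spi1) in each C59 library. In the sums that follow, a gene that was not listed counts as 0, though it may still carry signal. The summed folds of the 4 endothelial genes were 3.25 and 3.92 after DMSO and 7.42 and 8.14 after C59. Pecam1 was listed in both C59 libraries alone (4.83 and 4.73), Tek in DMSO replicate 1 alone (3.25), and Kdr in none. Cdh5 was listed in DMSO replicate 2 (3.92) and in both C59 libraries (2.59 and 3.40). The sums of the 5 ectodermal genes were 8.85 and 3.604 after DMSO and 0 in both C59 libraries. Only Dlx5 (4.61 and 3.604) and Sp8 (4.24, replicate 1) were listed after DMSO, and Fgf8, Trp63 and Krt14 in no library. The part of these cells in the results below was not tested.

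The β-catenin consensus list of DMSO-injected embryos held 8 summits in the window, named B1 to B8 from Hoxc13 towards Hoxc4 and beyond. The sequences of 6 of them are shown first, because they are places where β-catenin was listed at this cluster, and because the words in them differ. They run along the plus strand of GRCm38 (RefSeq assembly), centred on the summit. B1 is chr15:103014590-103014710, in the Hoxc5 intron. B2 is chr15:103032852-103032972, in a Hoxc4 intron. B4 is chr15:103061626-103061746 and intergenic. Capitals mark TCGTAAA in B1 and TGATTTA in B2 and B4, on either strand, so that TTTACGA is TCGTAAA read on the minus strand.
B1: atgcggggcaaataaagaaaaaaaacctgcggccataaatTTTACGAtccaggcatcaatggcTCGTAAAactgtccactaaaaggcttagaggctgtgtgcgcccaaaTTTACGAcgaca
B2: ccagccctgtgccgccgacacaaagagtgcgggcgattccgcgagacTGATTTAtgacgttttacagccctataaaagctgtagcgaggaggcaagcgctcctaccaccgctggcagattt
B4: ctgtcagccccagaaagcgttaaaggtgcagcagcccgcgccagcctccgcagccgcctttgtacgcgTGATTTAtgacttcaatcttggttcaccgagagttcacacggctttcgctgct
The other 3 hold a TCF/LEF core, here in capitals and read on the minus strand. B5 is chr15:103074938-103075058 and B6 is chr15:103115540-103115660, both intergenic, and B8 is chr15:103128268-103128388, in an intron of the long non-coding RNA gene D930007P13Rik.
B5: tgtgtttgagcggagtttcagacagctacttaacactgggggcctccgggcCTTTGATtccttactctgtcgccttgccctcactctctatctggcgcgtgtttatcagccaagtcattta
B6: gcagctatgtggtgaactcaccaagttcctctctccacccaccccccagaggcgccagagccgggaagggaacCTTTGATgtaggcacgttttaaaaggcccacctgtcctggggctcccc
B8: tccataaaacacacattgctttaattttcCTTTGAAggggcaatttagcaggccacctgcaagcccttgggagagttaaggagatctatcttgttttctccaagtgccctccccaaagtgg
The core of B5 was ATCAAAG, with its centre 6 bp from the summit, that of B6 was ATCAAAG at 16 bp, and that of B8 was TTCAAAG at 28 bp.

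The posterior genes of the cluster had almost no listed H3K27ac. No gene from Hoxc13 to Hoxc10 had a summit in its body or within 1 kb of it in any of the 4 libraries or in either consensus list. The genes Hoxc9, Hoxc8, Hoxc6, Hoxc5 and Hoxc4 had at least 1 in all of them. Hence 5 of 9 Hoxc genes were marked in the DMSO consensus list, where 55.7% of all protein-coding genes were, a share close to that of the Hoxc genes. The 100 kb beyond Hoxc13 held 0 rows in all 12 lists. The 50.8 kb from Hoxc13 to the end of Hoxc10 held 0 H3K27ac summits in 3 libraries and 1 in replicate 2 of DMSO, which lay between Hoxc11 and Hoxc10 and reached a fold of 2.83 on 10 fragments. The other libraries would have needed folds of 2.98, 2.88 and 3.02 to list it.

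The 60.4 kb from Hoxc9 to Hoxc4 held 16 and 17 H3K27ac summits after DMSO and 20 and 15 after C59, so the groups overlapped. Peaks covered 12.7% and 11.4% of this stretch after DMSO and 12.4% and 10.2% after C59.

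**Figure D1:**
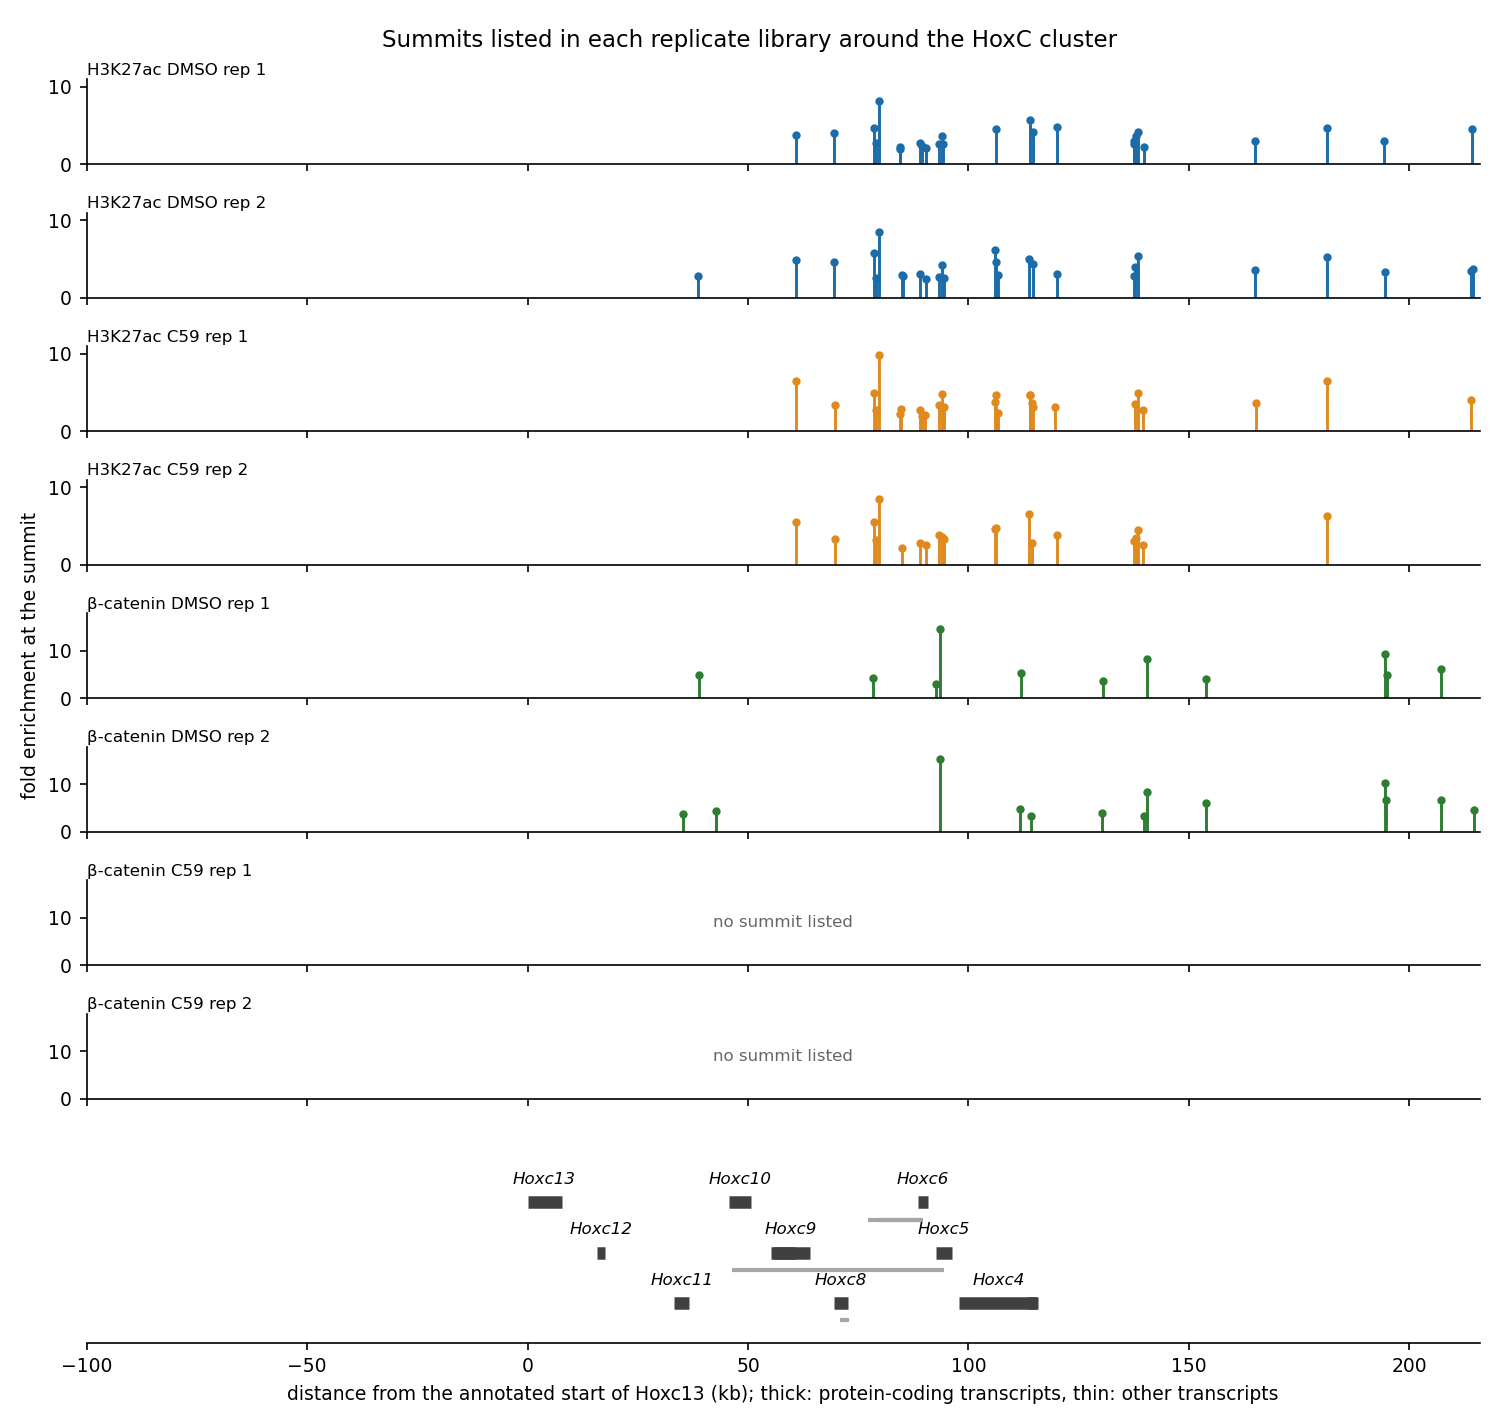
Summits of each replicate library in the window, as the fold enrichment at the summit (y axis, separate scales for H3K27ac and β-catenin) against the distance in kb from the annotated start of Hoxc13 (x axis), above the transcripts of the 9 Hoxc genes. H3K27ac summits begin at Hoxc9, apart from 1 summit in replicate 2 of DMSO, and both β-catenin C59 libraries hold 0 summits.

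A fold enrichment is the number of fragments over the summit, plus 1, divided by the number expected there, plus 1. As no input was used, the expected number came from the same library, and where peaks crowd it was high: 11.7 to 22.2 fragments at the Hoxc6 and Hoxc5 summits of DMSO replicate 1, against a genome-wide background of 2.69. Fold enrichment therefore ranks a summit against its own neighborhood, and the fragments are given beside it.

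Hoxc6, which lies between Hoxc8 and Hoxc5, held the most strongly acetylated region of the window (H4, chr15:102999364-103001087). Its highest fold was 8.14 and 8.49 after DMSO and 9.86 and 8.44 after C59, on 113, 135, 167 and 119 fragments. The highest value was that of a C59 library, and the groups overlapped. The summit lay 198 to 203 bp downstream of the start of a non-coding Hoxc6 transcript in all 4 libraries, and 8841 to 8846 bp upstream of the start of the protein-coding Hoxc6 transcript. At the protein-coding start the region H6, with its summit 633 to 658 bp downstream, reached folds of 2.81 and 3.03 after DMSO and 2.73 and 2.79 after C59, on 61, 66, 59 and 48 fragments. Both C59 folds were below both DMSO folds, by a gap that was smaller than the difference between the DMSO replicates, and once each library was centred on its median the groups overlapped. The regions H5 and H7, also in Hoxc6, had folds from 2.12 to 2.93 over the 4 libraries.

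Hoxc5 held the region H8 (chr15:103014174-103015969), which reached 3.595 and 4.18 after DMSO and 4.82 and 3.87 after C59, on 74, 87, 105 and 66 fragments. By fragments it ranked next to H4 in 3 of the 4 libraries, and by fold it did not stand out. It had 3 summits in every library, at 527 to 579 bp, 1267 to 1292 bp and 1565 to 1810 bp downstream of the start of the protein-coding Hoxc5 transcript, and the position of the third varied most. The highest was the second summit, except in C59 replicate 2, where it was the first. At the first summit the folds were 2.55 and 2.65 after DMSO and 3.37 and 3.87 after C59. At the third they were 2.59 and 2.57 after DMSO and 3.13 and 3.33 after C59. At both of these summits the C59 folds were above the DMSO folds. At the second the groups overlapped, as C59 replicate 2 had 3.64 there. Single summits were not tested. The annotated Hoxc5 gene also has a non-coding transcript that begins inside Hoxc10 and spans Hoxc9, Hoxc8 and Hoxc6, and only the values near the protein-coding transcript are given as those of Hoxc5.

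Hoxc4, the most anterior gene of the cluster, held 2 regions. The highest summit of H10 lay 523 to 587 bp downstream of the start of the shorter protein-coding Hoxc4 transcript, and reached 5.67 and 4.97 after DMSO and 4.74 and 6.52 after C59. That of H9 lay in an intron of the longer transcript, 7004 to 7302 bp upstream of that start, and reached 4.62 and 6.18 after DMSO and 4.68 and 4.72 after C59. In H9 both C59 values lay between the DMSO values, and in H10 both DMSO values lay between the C59 values. The start of that longer transcript had no summit less than 1 kb away in any library.

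Hoxc8, which acts at brachial levels of the trunk, had 1 summit a library (H3), 69 bp downstream of its start in both DMSO libraries and 332 and 260 bp downstream after C59. It reached 4.07 and 4.63 after DMSO and 3.36 and 3.27 after C59, on 14, 17, 13 and 12 fragments, so both C59 values were below both DMSO values. Hoxc9, at the border between the marked and the unmarked genes, had 1 summit a library (H2), in a coding exon 4879 to 4995 bp downstream of the start of the longer Hoxc9 transcript, and none less than 1 kb from a start. H2 reached 3.80 and 4.89 after DMSO and 6.47 and 5.53 after C59, on 13, 18, 26 and 21 fragments, and here both C59 values were above both DMSO values. As a share of the body annotated by RefSeq, chosen after the values were seen because it leaves out the long Hoxc5 transcript, peaks covered a larger share of Hoxc5 than of the other genes, with 50.5% and 37.9% after DMSO and 46.6% and 45.8% after C59. In Hoxc6 the share was 17.6% to 22.7%, in Hoxc4 9.33% to 11.9%, in Hoxc8 6.05% to 10.8% and in Hoxc9 3.08% to 8.82% over the 4 libraries. H2 and H3 rest on the fewest fragments of all those listed in the 5 genes. With the rule of less than 1 kb from a start, 4 of 9 Hoxc genes were marked in the DMSO consensus list (Hoxc8, Hoxc6, Hoxc5 and Hoxc4), against 52.2% of all protein-coding genes.

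**Figure D2:**
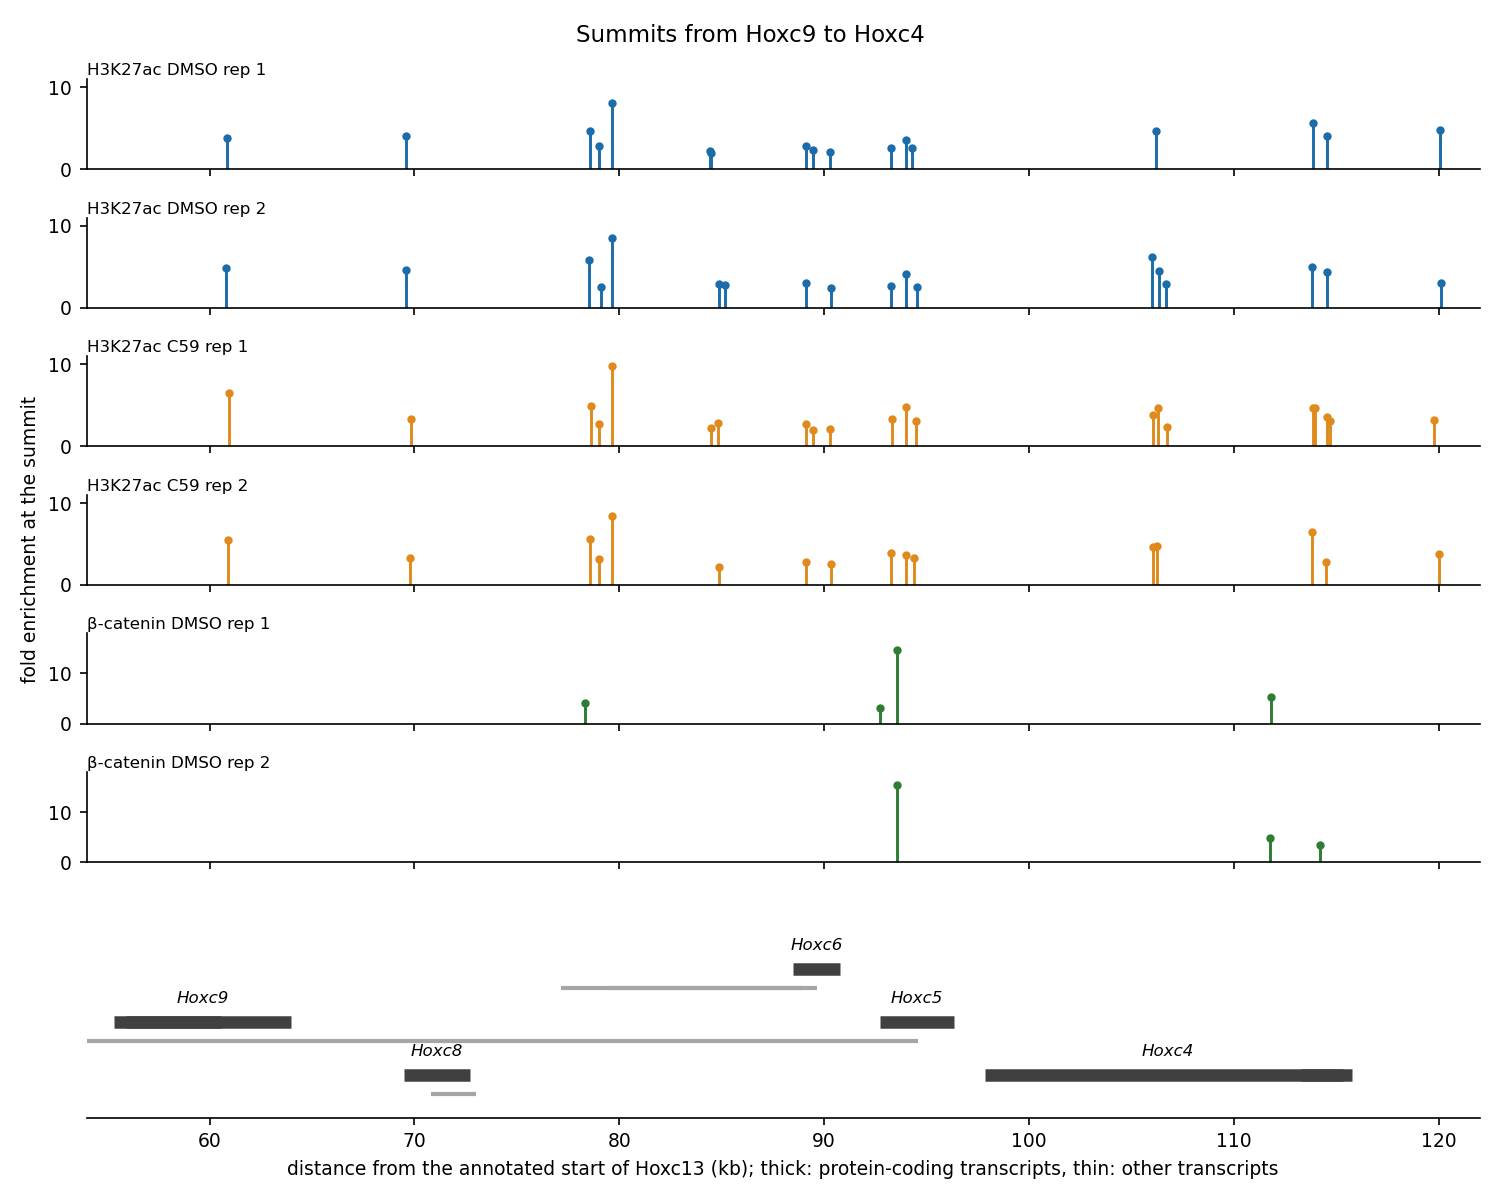
The same summits from Hoxc9 to Hoxc4, for the 4 H3K27ac and the 2 β-catenin DMSO libraries; y axis, fold enrichment; x axis, kb from the start of Hoxc13. The highest H3K27ac summit stands over a non-coding start of Hoxc6 in all 4 libraries (8.14 to 9.86), and the highest β-catenin summit over Hoxc5 in both (14.6 and 15.4).

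The comparison of C59 with DMSO asked whether acetylation of the cluster changed within 6 h of blocking WNT secretion. The window held 26 and 27 H3K27ac summits after DMSO and 27 and 21 after C59, a difference of means of -2.5, and peaks covered 7697 and 7199 bases of the cluster after DMSO and 7506 and 6176 after C59, a difference of -607. Both differences were smaller than the spread of the C59 replicates, and the exact permutation test, two-sided, cannot go below p = 0.33 with 2 against 2 libraries. Of the 14 DMSO consensus regions of the window, 11 overlapped a C59 region, where 87.1% did in the whole genome. Of the 13 C59 regions, 11 overlapped a DMSO region, where 89.3% did in the whole genome. When the 4 replicate lists were merged, 18 regions (H1 to H18) lay in the window and 12 were listed in all 4 libraries.

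These 12 regions were tested with limma on the log2 of the highest fold in each library, centred on the median of the library, together with all 17475 regions listed in 4 libraries. After Benjamini-Hochberg adjustment 0 of the 12 passed in either direction, and 0 of 17475 did, which is 0% lower and 0% higher after C59. Regions missing from any library, H16 among them, did not enter this test, so it cannot show a lost or gained listing. At an unadjusted p under 0.05, 3 of the 12 and 1777 of all (10.2%) were found. The 3 were H2 at Hoxc9, with a log2 difference of 0.50 (95% interval 0.13 to 0.87, adjusted p = 0.432), H3 at Hoxc8, with -0.36 (-0.65 to -0.08, adjusted p = 0.437), and H15 in the flank, with 0.37 (0.09 to 0.65, adjusted p = 0.436). The last lies 181 kb from the start of Hoxc13 over the non-coding genes Gm10830 and Gm28265 and reached 4.73 and 5.32 after DMSO and 6.47 and 6.29 after C59.

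The other genes had smaller differences with intervals that include 0. For H4 at Hoxc6 the log2 difference was 0.16 (-0.12 to 0.44), for H6 at the protein-coding Hoxc6 start -0.06 (-0.34 to 0.23), for H8 at Hoxc5 0.18 (-0.15 to 0.52), for H9 at Hoxc4 -0.16 (-0.55 to 0.23), and for H10 at Hoxc4 0.09 (-0.42 to 0.61). The median over the 12 regions was 0.04, and that over all regions was 0.03. Of the 12, 7 were above 0. Of these 5 intervals that of H10 was the widest.

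**Figure D3:**
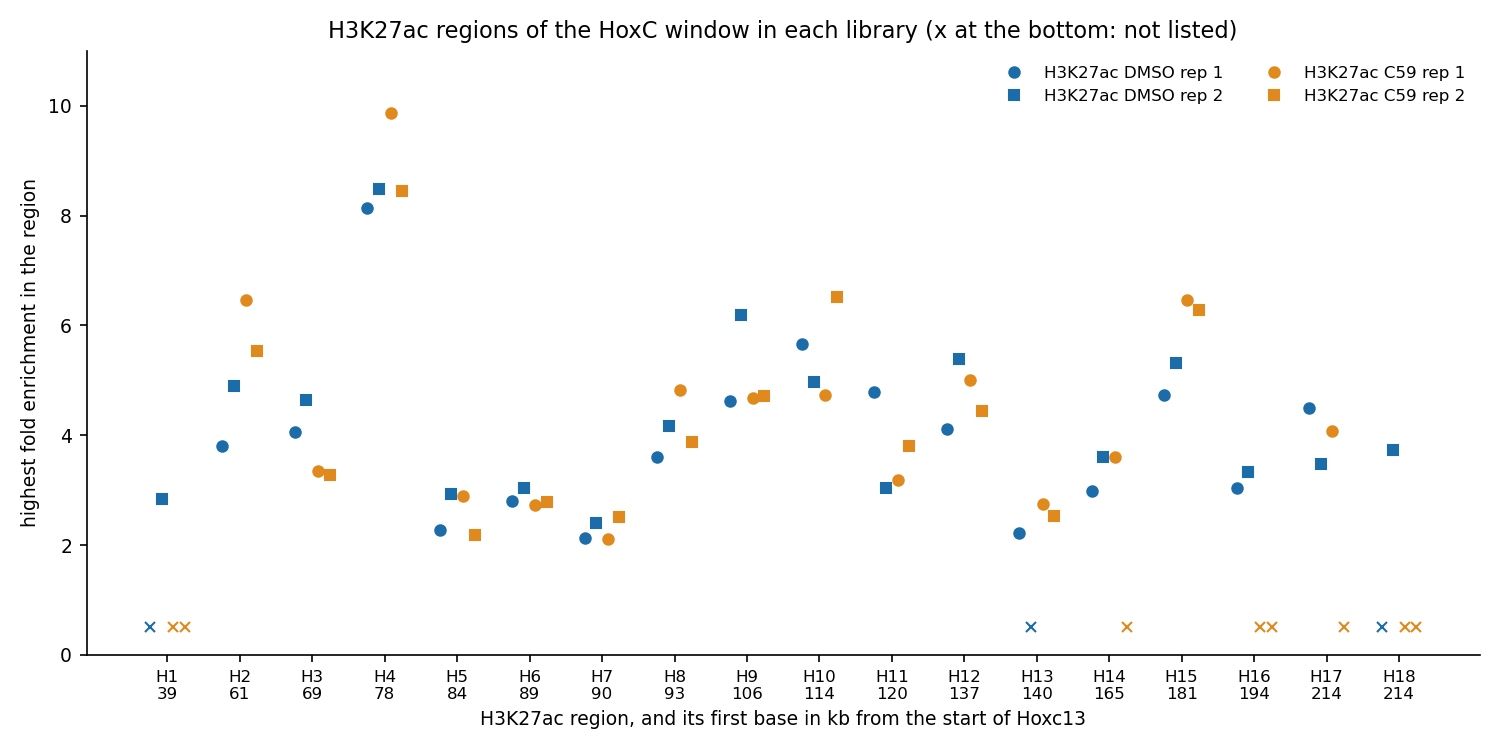
Highest H3K27ac fold enrichment (y axis) of the 18 regions of the window in each of the 4 libraries, DMSO in blue and C59 in orange, in their order on the chromosome with the first base in kb from the start of Hoxc13 (x axis). Among the regions listed in all libraries the DMSO and C59 points do not overlap at H2, H3, H6 and H15, with a narrow gap at H6 (2.81 against 2.79), and crosses mark the libraries that do not list a region.

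Of the 6 regions not listed in all libraries, H1 and H18 were listed in replicate 2 of DMSO alone. H13 was missing in replicate 2 of DMSO, and H14 and H17 in replicate 2 of C59. H16, which holds the β-catenin summit B6, was listed in both DMSO libraries, with folds of 3.04 and 3.32, and in neither C59 library. The C59 libraries would have needed folds of 2.86 and 2.998 to list it, so the DMSO values themselves were close to the limit.

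β-catenin was listed in the window after DMSO only. There were 11 and 13 summits in the DMSO libraries and 0 and 0 in the C59 libraries, a difference of means of -12 (exact permutation p = 0.33, the smallest that this design can give). The whole C59 lists held 330 and 358 rows against 20203 and 25836 after DMSO. All 8 consensus summits of the window lay outside C59 peaks, as did 98.7% of all consensus summits.

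The C59 lists also had a stricter limit. Their lowest listed -log10 p was 5.69 and 5.72, against 3.89 and 3.79 after DMSO. From the expected coverage at each DMSO summit, scaled to the depth of the C59 libraries, the fold that a C59 library needed to be listed was computed. For 7 of the 8 summits both DMSO folds were above it. B3, an intergenic summit 130 kb from the start of Hoxc13 with folds of 3.57 and 3.99, was below the 4.08 and 4.09 needed, and its absence after C59 cannot be judged.

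B1 in Hoxc5 was the strongest β-catenin summit of the window (chr15:103014650, 835 bp downstream of the start of the protein-coding Hoxc5 transcript and 260 bp upstream of the miRNA gene Mir615). Its fold was 14.6 in replicate 1 and 15.4 in replicate 2, on 95 and 117 fragments, and 16.01 in the consensus list, where it ranked 684 of 16238 summits. A C59 library needed a fold of 2.89 or 2.90 to list it, so the lower DMSO value was 5.04 times the higher limit. B1 lay between the first and the second of the 3 H3K27ac summits of Hoxc5, 269 bp from the nearest one in the DMSO consensus list. It was inside an H3K27ac peak in both consensus lists and in 3 of the 4 libraries, while in replicate 2 of DMSO the peaks left a gap at it. The highest fold of the acetylated region H8 did not pass the test for a difference in the C59 libraries, in which B1 was not listed.

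The second summit inside the cluster, B2, lay in the Hoxc4 intron 1483 bp upstream of the start of the shorter Hoxc4 transcript, with folds of 5.26 and 4.87 in the 2 DMSO libraries. It was 2052 bp from the nearest H3K27ac summit and in no H3K27ac peak. With these, 2 of 9 Hoxc genes had a β-catenin summit in the body or within 1 kb of it in the consensus list, against 18.6% of all protein-coding genes. In that list only Hoxc5 had one less than 1 kb from a start, against 9.04% of all. Single libraries listed weak summits at 2 more genes: Hoxc6 in replicate 1, with a fold of 4.19, and Hoxc11 in replicate 2, with 3.85. Replicate 2 also listed a summit 925 bp downstream of the start of the shorter Hoxc4 transcript, with a fold of 3.43. Replicate 1 listed a further one 11 bp downstream of the protein-coding Hoxc5 start, with 3.09. Between Hoxc11 and Hoxc10 replicate 1 listed a summit with a fold of 4.89 and replicate 2 listed another with 4.41, and these lay 3863 bp apart.

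The other 6 consensus summits lay beyond Hoxc4, from 130 to 207 kb from the start of Hoxc13. B6 was the strongest of them, with folds of 9.41 and 10.2 in the DMSO libraries, followed by B4 with 8.33 and 8.39. B8 reached 6.26 and 6.79 and B7, 337 bp from B6 in the same peak, 4.91 and 6.63. B5 reached 4.01 and 6.14, and its lower value was just above the 3.77 and 3.78 that the C59 libraries needed. In both DMSO libraries B1 was the highest, B6 the next and B4 the third.

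**Figure D4:**
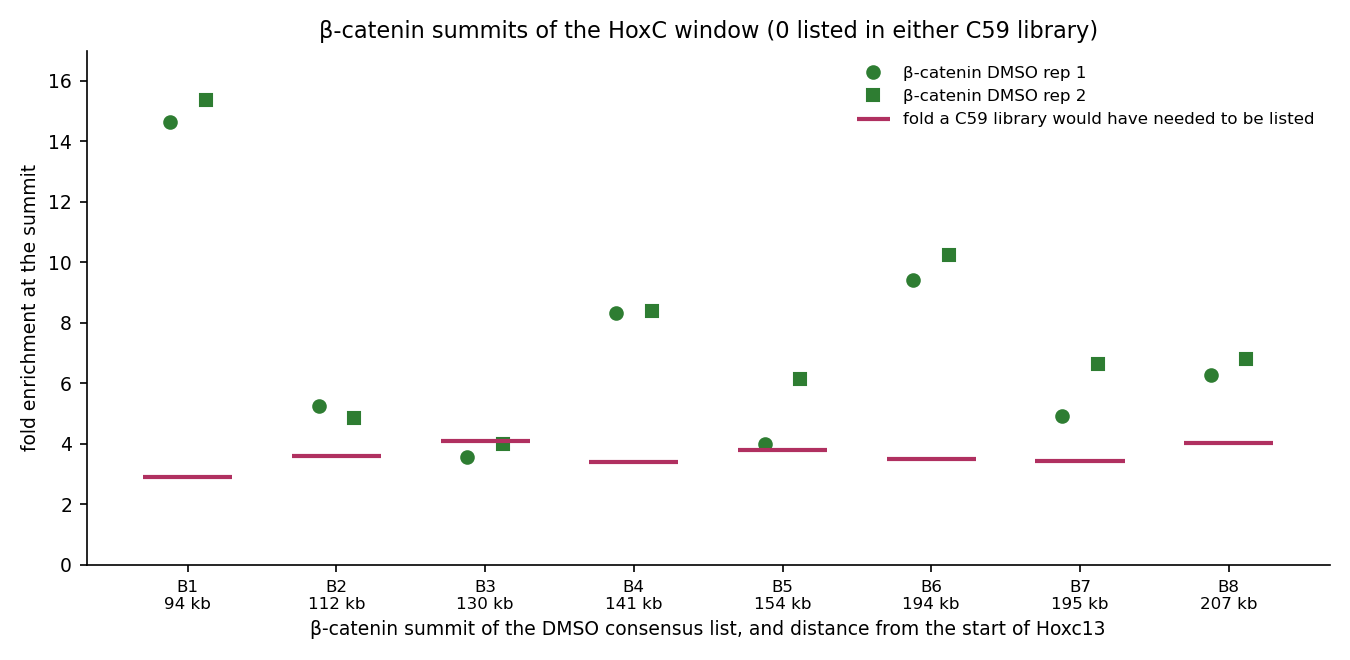
Fold enrichment (y axis) of the 8 consensus β-catenin summits of the window in both DMSO libraries (green), ordered along the chromosome with the distance from the start of Hoxc13 (x axis), and the fold that a C59 library needed to be listed (line, the higher of both libraries). Both DMSO points lie above the line at 7 summits and below it at B3, and B1 stands highest at 14.6 and 15.4.

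Only B1 and B6 lay inside DMSO H3K27ac consensus peaks, 2 of 8, where 22.2% of all consensus summits did. A TCF/LEF core on either strand was present in 200 bp around 3 of 8 summits (B5, B6 and B8), where 28.6% of all summits had it. Both shares rest on 8 summits and are near those of the genome. The strongest summit, B1, held no core in these 200 bp, nor did B4.

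The words in capitals in B1, B2 and B4 were chosen after the sequences had been read, so their counts are descriptions. TCGTAAA, a word that posterior Hox proteins are known to prefer, was present 3 times in the 200 bp around B1, with its centres 17, 6 and 52 bp from the summit. It was present at least once at 209 of 16193 summits (1.29%), at least 2 times at 3 of them, and 3 times at 1, which is B1. TGATTTA, which is part of a joint Hox and Pbx motif, was present at B2, B4 and B5 (3 of 8), and at 1580 of 16193 summits (9.76%). At B2 and B4 its centre was 10 and 11 bp from the summit, and the letters tgac followed it in both. No match of one of these words overlapped a match of another or a TCF/LEF core in these windows. A match of letters does not show that a factor is bound.

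The other Hox clusters were read in the same way to place HoxC among them. H3K27ac peaks covered 6.65% and 6.22% of the HoxC cluster in the 2 DMSO libraries. The values were 5.35% and 5.56% for HoxB, 11.9% and 11.96% for HoxD, and 13.8% and 14.6% for HoxA. The order of HoxC below HoxD and HoxA was the same in the C59 libraries (6.48% and 5.34% for HoxC, 12.1% and 11.9% for HoxD, and 15.4% and 13.8% for HoxA). Because the clusters differ in length and gene number, these values are set side by side and not tested.

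The posterior genes of HoxA and HoxD were marked. In paralogue groups 9 to 13, the start of each HoxD gene was marked in both DMSO libraries, with folds from 2.62 at Hoxd10 to 7.76 at Hoxd13. Hoxa9, Hoxa10, Hoxa11 and Hoxa13 were marked in both too, with folds from 2.37 to 4.88. Hoxb9 was listed in 1 library, with 3.604, and Hoxb13 in none. No start from Hoxc9 to Hoxc13 was listed in either. In the DMSO consensus list H3K27ac summits were less than 1 kb from a start of 10 of 11 HoxA, 6 of 10 HoxB, 4 of 9 HoxC and 8 of 9 HoxD genes. Among the anterior genes, the fold at Hoxc6 (8.14 and 8.49) was near those of Hoxa4 (7.27 and 8.84) and Hoxd4 (9.19 and 9.52), which shares its summit with Hoxd3.

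β-catenin summits were fewer in HoxC than in HoxA and HoxD. There were 4.32 and 4.32 summits for each 100 kb of HoxC in the DMSO libraries, against 11.4 and 14.2 in HoxA, 13.4 and 15.5 in HoxD, and 4.599 and 9.20 in HoxB, and 0 in all 4 clusters after C59. The consensus fold of B1 (16.01) was above the highest of HoxA (12.9), HoxB (11.9) and HoxD (9.87). In both DMSO libraries HoxC thus had the fewest summits for its length and the highest fold of the 4 clusters. In replicate 1 HoxB was close, with 4.599 against 4.32 summits for each 100 kb and a highest fold of 13.1 against 14.6. In replicate 2 it was further away, with 9.20 against 4.32 summits and 10.2 against 15.4.

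**Figure D5:**
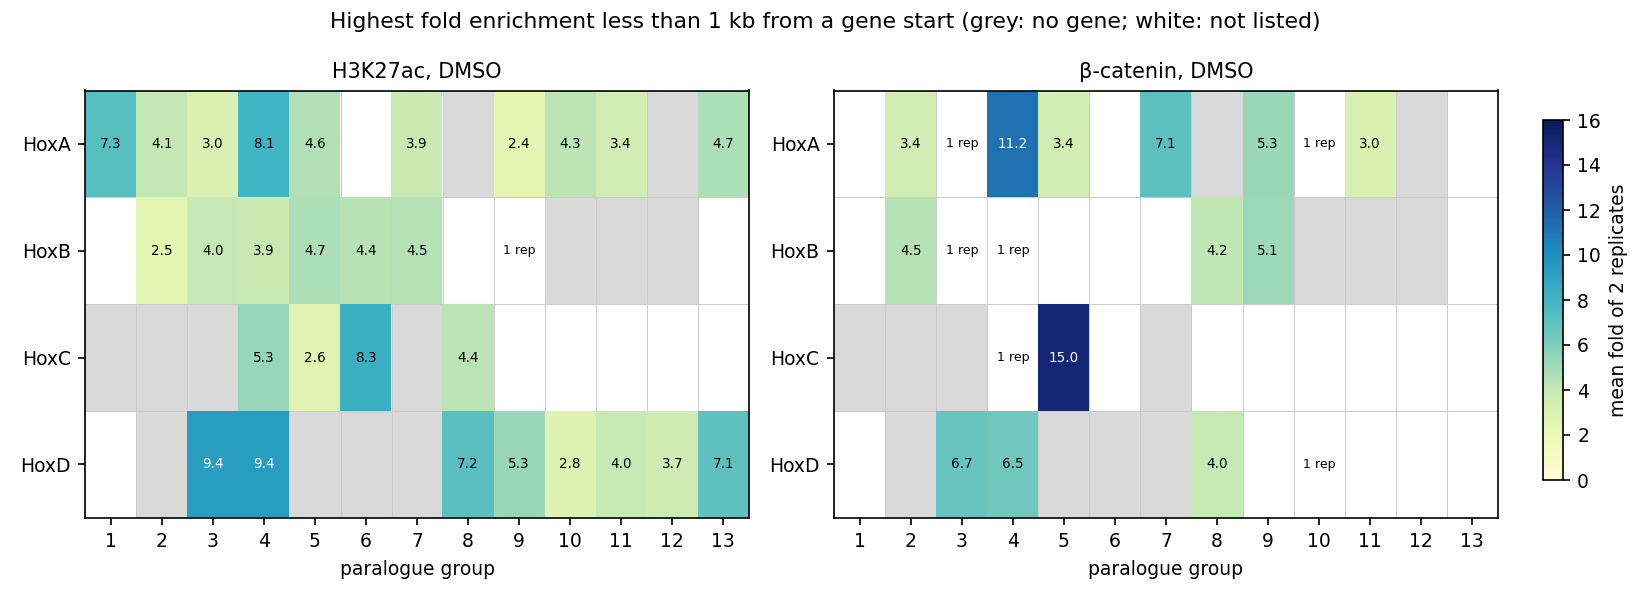
Highest fold enrichment less than 1 kb from a gene start, as the mean of both DMSO libraries, for H3K27ac (left) and β-catenin (right), with the 4 Hox clusters as rows and the paralogue groups as columns. Grey cells have no gene, white cells are not listed in both libraries, and "1 rep" marks a summit in 1 library. In the HoxC row H3K27ac ends at Hoxc8, whereas the HoxA and HoxD rows extend to group 13.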

How the data were processed

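H3K27ac and β-catenin ChIP-seq were read from 12 peak lists. Per the labels, the authors trimmed the reads with cutadapt 4.1 (the methods of the study name another version), aligned them to mm10 with Bowtie2 2.4.5 and called peaks with MACS2 2.2.7.1 for each replicate and for both together. The deposited lists give a fold enrichment (a ratio to the coverage expected in the same library, since no input was used), a −log10 p-value and a −log10 q-value at each summit. The q-values of the consensus lists were not used. The fold enrichment and the −log10 p-value were solved for the fragments at the summit. The lowest expected coverage times a genome of 1.87e+09 bases gave the depth. Counting error is the only error that follows from the fragments.

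H3K27ac peaks of the 4 replicate libraries were merged into regions, and those listed in all 4 were tested with limma 3.58.1 (R 4.3.3) on the log2 of the highest fold, centred on the median of each library, with Benjamini-Hochberg adjustment over all 17475. Summit numbers and covered bases were compared by an exact permutation test, two-sided. The solution and limma were tested on simulated data. Summits were annotated with GENCODE M21, and words were searched in the RefSeq GRCm38 genome with Python 3.11.15. The 9 genes were all named, as were the β-catenin consensus summits, the Hox paralogues and the marker genes. The members and lists were chosen with earlier results of these data known. RefSeq bodies, fragments in place of fold, 1 threshold for both treatments and both 7-letter Hox words were added after the values were seen. Alternatives were another flank, a stricter q-value, consensus lists, other region summaries, leaving out each replicate and a replicate block.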

Additional observations from a re-analysis of the deposited data

How the results depend on the processing

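Of 123 alternative values for 17 results, 110 were counted as unchanged. For the log2 difference of a region this meant the same direction and side of the threshold. For the median over the HoxC regions it meant a shift smaller than the spread between replicates. Some results are counts without a direction, and the permutation p could not fall below 0.33, so the total does not measure robustness. Both C59 libraries listed 0 β-catenin summits in the window, so a narrower choice of rows could not reverse the difference of -12 summits. It was -8.5 with a flank of 50 kb, -5 in the cluster alone and -7.5 at a −log10 q-value of at least 5. It was -8 in the consensus lists and -11 with 1 threshold for both treatments. When a replicate was left out it ranged from -13 to -11, and with the replicate block it was -12. The H3K27ac difference of -2.5 summits became 0.5 in the cluster alone, 0 at a −log10 q-value of at least 5 and 0 in the consensus lists, and ranged from -5.5 to 0.5 when a replicate was left out, with 0.5 without C59 replicate 2. The difference of -607 covered bases became 635 in the consensus lists and ranged from -1272 to 58, with 58 without C59 replicate 2. Hoxc genes with a β-catenin summit went from 2 to 1 (Hoxc5) when a summit had to lie less than 1 kb from a start. No alternative brought a tested H3K27ac region past the threshold (0 called). The log2 difference of H10 at Hoxc4 became -0.12 with the mean of rows, -0.061 with fragments, and ranged from -0.18 to 0.37 when a replicate was left out, with -0.03 without DMSO replicate 2. That of H9 ranged from -0.35 to 0.03 when a replicate was left out, with 0.026 without DMSO replicate 2. That of H8 at Hoxc5 became 0.30 with the mean of rows (limma adjusted p = 0.564) and 0.06 with fragments. With fragments the median over the HoxC regions was -0.08 and that over all regions 0.03. In limma the replicate block called 0 regions, and the difference of replicate 1 from replicate 2 correlated between DMSO and C59 at r = 0.0102 over 17475 regions, which does not show that the numbers pair the samples. The cause of these differences was not tested. A region not listed lies under the listing limit of its library and may still carry signal.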
